A study of Rattus norvegicus with 6 samples.

Results

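The cytosolic heat shock chaperones were examined in rats of the Hlirag and diabetic groups. Of 10 genes listed for this family, 8 had a probe set of their own among the 18166 genes measured, namely Hspa8, Hspa4, Hsph1, Dnajb1, Bag3, Hsp90ab1, Hspb1 and Cryab. Hspa1b and Hsp90aa1 were represented only by probe sets that the array annotation shares with another gene, so no level of their own could be read. The list was set by gene name, but with earlier results of these data known. Where a gene had several probe sets, the brightest stood for it. The Hlirag group (3 arrays) comprised male Sprague–Dawley rats that ate a high-fat diet for 4 weeks, received streptozotocin at 30 mg/kg, which destroys insulin-producing cells, and were then injected with liraglutide, which activates the receptor for the gut hormone GLP-1, at 0.4 mg/kg/day for 12 weeks. The diabetic group (3 arrays) shared the diet and the streptozotocin and received saline instead. According to the methods the rats were 5 weeks old at the start, whereas the labels state 17 weeks as the age, which these periods exceed. No healthy control array was analysed here, and whether the 3 arrays of a group came from different rats is not given in the sources used here. The p-values therefore reflect the spread among these arrays, which may be technical.

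Molecular chaperones bind unfolded or nascent proteins and keep them from aggregating. The HSP70 proteins do this in cycles of ATP hydrolysis that J-domain proteins start and nucleotide exchange factors end, HSP90 receives clients such as kinases and steroid receptors from HSP70, and the small heat shock proteins hold unfolded clients without ATP. Most of these genes are induced together by heat shock factor 1 (HSF1), which binds inverted repeats of nGAAn, and heart and skeletal muscle hold much CRYAB and HSPB1, which protect the sarcomere, together with BAG3, which links HSP70 to small heat shock proteins and to autophagy.

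Because HSF1 induces most of these genes and binds inverted repeats, such repeats were looked for in the promoters. RefSeq promoters (GRCr8, 250 bases before to 50 bases after the annotated start) were at hand for 7 listed genes, all but Hspa1b, Hsp90aa1 and Cryab. The motifs GAANNTTC and TTCNNGAA, each its own reverse complement, were searched, as was, on both strands, a longer motif of GAANNTTC followed directly by NNGAA, which contains one of each. GAANNTTC was found at least 1 time for Hspa8, Hsph1, Dnajb1, Bag3 and Hspb1, and TTCNNGAA for Hspa8 and Hsph1 only. Neither was found in these windows for Hsp90ab1 and Hspa4. Among 33469 promoters of the same length, 8.59% held GAANNTTC, 8.77% held TTCNNGAA and 0.798% held the longer motif, which had 2 matches in Hspa8 and 1 in Hsph1. The stretches before the start that hold the matches follow with up to 25 flanking bases, 5′ to 3′ on the strand of the gene, with matched bases in capitals.
Hspa8, chr8:50080276-50080338, plus strand: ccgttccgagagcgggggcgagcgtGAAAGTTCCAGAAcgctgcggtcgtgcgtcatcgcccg
Hspa8, chr8:50080434-50080496, plus strand: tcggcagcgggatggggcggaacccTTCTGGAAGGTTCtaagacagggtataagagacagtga
Hsph1, chr12:10427238-10427295, plus strand: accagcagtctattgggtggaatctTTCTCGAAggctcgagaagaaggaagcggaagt
Hsph1, chr12:10427307-10427367, plus strand: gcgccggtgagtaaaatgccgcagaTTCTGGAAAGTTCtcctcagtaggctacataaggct
Dnajb1, chr19:41431142-41431177, minus strand: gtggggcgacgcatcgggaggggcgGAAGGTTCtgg
Bag3, chr1:192533303-192533360, plus strand: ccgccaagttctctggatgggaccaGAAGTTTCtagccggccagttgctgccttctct
Hspb1, chr12:26432378-26432455, minus strand: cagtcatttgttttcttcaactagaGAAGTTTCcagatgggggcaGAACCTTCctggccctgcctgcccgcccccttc
The longer motif began 213 and 55 bases before the start of Hspa8 and 36 bases before that of Hsph1. In Bag3 the single match began 132 bases before the start, in Hspb1 the matches began 129 and 109 bases before it, and Dnajb1 had 1 match 11 bases before the start and another from base 18 after it. A match is a run of letters and does not show that a factor binds there.

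Levels are the deposited log2 values, on which a difference of 1 is a doubling of the signal, and values of different genes come from different probes and are not ranked against each other. Log2 fold changes are the Hlirag mean less the diabetic mean. The study's criterion (p below 0.05 before adjustment, and more than 1.5-fold up or down) was applied to limma's test over all genes. Arrays were not alike. On Hlirag replicate 3 the values were compressed, with an SD over genes of 1.52 against 1.84 to 1.98 on the other 5 arrays, and the brightest 10% of genes had a median level of 8.41 there and of 8.92 to 9.10 elsewhere. All 7 adipocyte markers, such as Adipoq and Plin1, lay above the background level of 5.60 (the 95th percentile of 68 olfactory receptor genes) on every array. So did 9331 to 9724 of all 18166 genes, depending on the array. The median level of the adipocyte markers was 11.09, 11.03 and 11.27 in Hlirag and 11.50, 10.93 and 11.18 in diabetic. The labels do not settle the tissue: its entry reads cardiac muscle, sample titles begin with "arota", and descriptions name adipose from a different experiment. The levels below are therefore those of RNA whose tissue is uncertain. All 7 smooth muscle markers were above background on every array too, with a median level of 9.91, 9.12 and 8.01 in Hlirag and of 9.25, 8.09 and 9.99 in diabetic; Myh11, the smooth muscle myosin, ranged between 9.86 and 11.91 in Hlirag and between 9.75 and 11.82 in diabetic. Of 12 ventricular cardiomyocyte markers, 8, 4 and 3 lay above background on the 3 Hlirag arrays and 11, 7 and 3 on the 3 diabetic arrays, in order of replicate. Myh6, the main myosin of the rat heart, was below background on Hlirag replicates 2 and 3 (3.81 and 4.19) and on diabetic replicates 2 and 3 (3.76 and 3.93). It was above background on replicate 1 of each group (7.88 in Hlirag and 9.16 in diabetic). The 9 measured skeletal muscle markers had a median level of 4.54, 4.70 and 5.13 in Hlirag and of 10.92, 11.88 and 4.75 in diabetic. The same 2 diabetic arrays were high in 9 nerve markers, whose median level was 4.84 to 5.11 in Hlirag and 7.80, 10.59 and 4.85 in diabetic.

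All 8 chaperone genes had a lower mean level in Hlirag than in diabetic, and 2 of them, Bag3 and Cryab, were lower at the study's criterion. None was higher. Over all genes, 2.16% were lower and 1.62% higher at the criterion (3.78% in all), and 49.8% had a log2 fold change below 0. In 4 chaperone genes, Hspa8, Hspa4, Bag3 and Cryab, every Hlirag array lay below every diabetic array, as in 4.69% of all genes; the opposite order, found in 6.42% of all genes, occurred in none of the 8. The median log2 fold change of the chaperone genes was -0.56, against 0.00 over all genes and -0.17 over the brightest 10%, of which 68.9% lay below 0 and to which 6 of the 8 belong by mean level. No gene of the whole table passed an adjusted p under 0.05 (limma, Benjamini-Hochberg), and 752 genes (4.14%) had an unadjusted p under 0.05. By the one-way ANOVA that the methods name, 1.3% of all genes met the criterion (0.49% lower) and Bag3 alone of the 8. The 8 chaperone genes had adjusted p of 0.780 to 0.802.

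**Figure D1:**
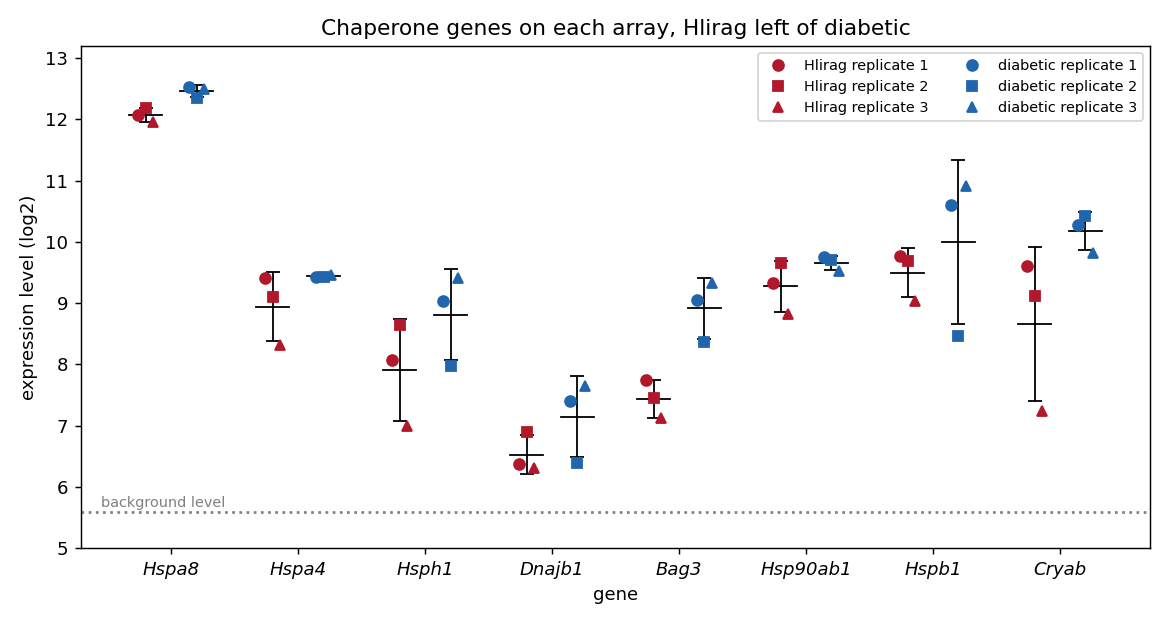
Expression level (log2) of the 8 chaperone genes on each array, with Hlirag (red) left of diabetic (blue) for each gene. Symbols mark replicates, bars the mean and SD of 3 arrays, and the dotted line the background level of 5.60. Bag3, Cryab, Hspa8 and Hspa4 show no overlap of the groups.

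Bag3, the co-chaperone that serves HSP70 as a nucleotide exchange factor, was the member that met the criterion in every setting tried. Its levels were 7.75, 7.45 and 7.12 in Hlirag and 9.05, 8.37 and 9.34 in diabetic. The Hlirag arrays lay close together and all below the lowest diabetic array, replicate 2. Hlirag minus diabetic came to -1.48 on the log2 scale (SE 0.31, 95% interval -2.21 to -0.75, unadjusted p = 0.00177, adjusted p = 0.780, limma), and the level in diabetic was 2.78-fold that in Hlirag. With each array left out in turn the log2 fold change lay between -1.75 and -1.27. Diabetic replicate 3, which gave the highest Bag3 level, had low skeletal muscle and nerve markers. It also had the highest median level of smooth muscle markers (9.99, against 9.25 and 8.09 on diabetic replicates 1 and 2). On the Hlirag arrays that median was 9.91, 9.12 and 8.01, in order of replicate. Without diabetic replicates 1 and 2 the log2 fold change was -1.90, a value that sets 3 Hlirag arrays against 1 diabetic array, which has no spread of its own and was assumed in the fit to vary like Hlirag. The part of those cell types in the Bag3 difference was not tested.

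Cryab encodes αB-crystallin, the small heat shock protein that binds desmin and titin in muscle. Its levels were 9.61, 9.12 and 7.24 in Hlirag, against 10.27, 10.43 and 9.83 in diabetic. Hlirag replicate 3 stood more than 1.5 log2 units below the other Hlirag arrays, and Hlirag replicate 1 came near to diabetic replicate 3. The difference between the group means was -1.52 on the log2 scale (SE 0.58, 95% interval -2.86 to -0.18, unadjusted p = 0.0309, adjusted p = 0.780, limma), a 2.87-fold higher level in diabetic. Without Hlirag replicate 3 it was -0.81 (unadjusted p = 0.0225). The criterion was missed without diabetic replicate 1 (-1.47, unadjusted p = 0.0724), without diabetic replicate 2 (-1.39, unadjusted p = 0.0777; limma), and by the one-way ANOVA of the methods. Against diabetic replicate 3 alone, again 1 array, the log2 fold change was -1.17. The skeletal muscle markers were high on diabetic replicates 1 and 2. The 12 ventricular cardiomyocyte markers had a median level of 6.14, 4.92 and 4.88 in Hlirag and of 7.95, 5.91 and 4.64 in diabetic. The part of either muscle type in the Cryab difference was not tested. In bulk tissue, fewer cells of a type and less RNA per cell cannot be told apart.

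Hspb1, the other small heat shock protein of the list, had levels of 9.78, 9.68 and 9.04 in Hlirag and of 10.61, 8.47 and 10.92 in diabetic. Diabetic replicate 2 gave the lowest value of all arrays and the other diabetic arrays gave the highest, so that the groups overlapped. This gave a log2 fold change of -0.50 (SE 0.61, 95% interval -1.93 to 0.93, unadjusted p = 0.443, limma), which was -1.26 without diabetic replicate 2 (unadjusted p = 0.00597) and -0.04 without diabetic replicate 3. The size of the Hspb1 difference thus rested on which diabetic array was included.

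Hsph1 and Dnajb1 showed the same split within diabetic. Hsph1 encodes HSP110, a nucleotide exchange factor and disaggregase partner of HSP70. Its levels were 8.08, 8.64 and 6.997 in Hlirag and 9.04, 7.98 and 9.42 in diabetic. Only diabetic replicate 2 fell within the Hlirag range, and the log2 fold change of -0.91 (SE 0.51, 95% interval -2.09 to 0.27, unadjusted p = 0.114, limma) passed 1.5-fold but not the p threshold. Without diabetic replicate 2 it was -1.32 (unadjusted p = 0.0304), without Hlirag replicate 2 it was -1.28 (unadjusted p = 0.0485), without Hlirag replicate 3 it was -0.45 (unadjusted p = 0.350) and without diabetic replicate 3 it was -0.61 (unadjusted p = 0.302).

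Dnajb1 encodes the J-domain protein HSP40, which delivers substrates to HSP70. Its levels were 6.38, 6.90 and 6.30 in Hlirag, against 7.40, 6.39 and 7.64 in diabetic, where replicate 2 again lay within the Hlirag range and replicates 1 and 3 lay above it. The log2 fold change was -0.62 (SE 0.37, 95% interval -1.47 to 0.23, unadjusted p = 0.131, limma), and without diabetic replicate 2 it was -0.995 (unadjusted p = 0.0125), whereas without diabetic replicate 3 it was -0.37 (unadjusted p = 0.369). With diabetic replicate 2 left out, 4 members were lower at the criterion, namely Bag3, Hspb1, Hsph1 and Dnajb1, and Cryab was not among them. In that setting 217 of all 18166 genes were lower at the criterion. Diabetic replicate 2 was also the array with the highest skeletal muscle and nerve marker levels and, of the diabetic arrays, the lowest median level of 7 smooth muscle markers (8.09, against 9.25 and 9.99 on diabetic replicates 1 and 3). The part of these cell types in the chaperone levels was not tested.

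**Figure D2:**
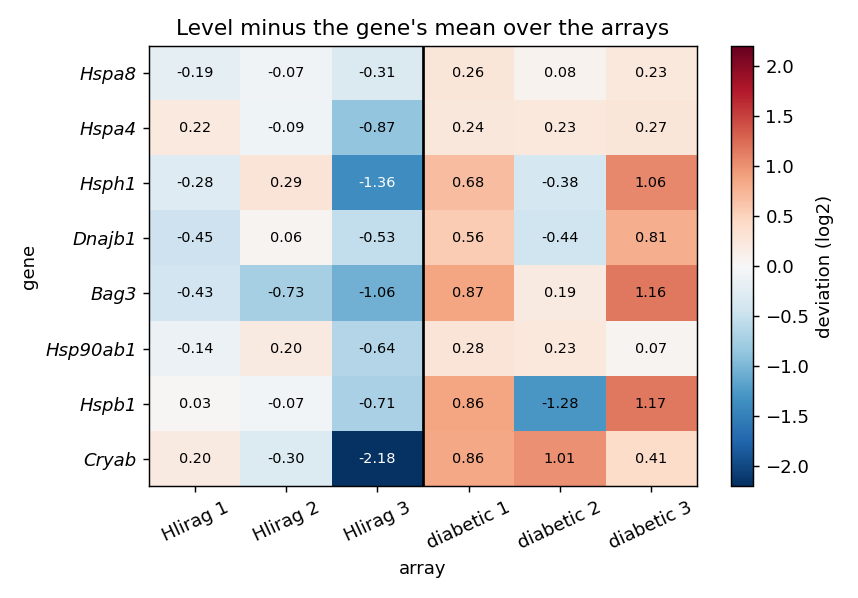
Level of each chaperone gene on each array minus the mean of that gene over the 6 arrays (log2, colour scale at the right), with the Hlirag arrays left of the line and the diabetic arrays right of it. Hlirag replicate 3 was the lowest array for 7 of the 8 genes, and on diabetic replicate 2 Hspb1, Hsph1 and Dnajb1 lay below their means by 1.28, 0.38 and 0.44 (values of -1.28, -0.38 and -0.44).

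Hspa8, the constitutive HSC70 that folds new proteins and uncoats clathrin vesicles, was among the brightest genes of every array. Its levels were 12.07, 12.19 and 11.96 in Hlirag and 12.53, 12.35 and 12.50 in diabetic. The groups did not overlap, and replicates of each group differed by less than the groups did (12.07 ± 0.12 in Hlirag and 12.46 ± 0.09 in diabetic, mean and SD of 3 arrays each). The log2 fold change of -0.39 (SE 0.21, 95% interval -0.87 to 0.09, unadjusted p = 0.101, limma) corresponded to 0.766-fold the diabetic level and did not reach 1.5-fold. By the one-way ANOVA of the methods the unadjusted p was 0.0119 and the adjusted p 0.803. With quantile normalization the log2 fold change was -0.44 (unadjusted p = 0.0347, limma), also short of 1.5-fold.

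Hspa4 encodes APG-2, a further HSP110-type exchange factor. Its levels were 9.41, 9.10 and 8.32 in Hlirag and 9.43, 9.42 and 9.46 in diabetic. The diabetic arrays were nearly identical, Hlirag replicate 1 lay just below them, and most of the difference came from Hlirag replicate 3. The log2 fold change was -0.49 (SE 0.31, 95% interval -1.21 to 0.22, unadjusted p = 0.146, limma). Leaving out Hlirag replicate 3 gave -0.18, whereas leaving out Hlirag replicate 1 gave -0.73 (unadjusted p = 0.0477), which met the criterion.

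Hsp90ab1 encodes HSP90β, the constitutive cytosolic HSP90. Its levels were 9.33, 9.66 and 8.83 in Hlirag and 9.75, 9.70 and 9.53 in diabetic. Hlirag replicate 2 lay within the diabetic range and Hlirag replicate 3 below all others. The log2 fold change was -0.39 (SE 0.27, 95% interval -1.01 to 0.24, unadjusted p = 0.188, limma) and -0.16 without Hlirag replicate 3. With all arrays, for the 6 genes that missed the criterion the intervals reached from above 0 to well beyond a 1.5-fold lower level, so neither equal levels nor such a decrease was shown.

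**Figure D3:**
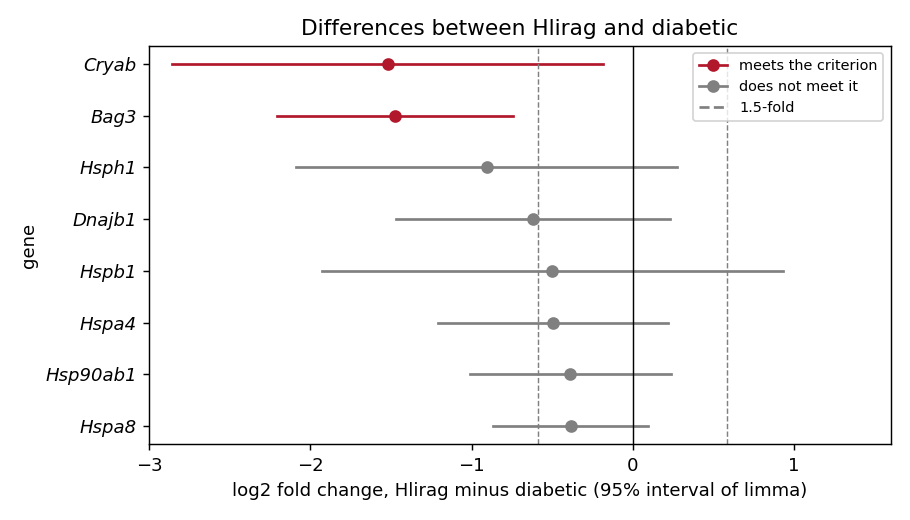
Log2 fold change (Hlirag minus diabetic) of the 8 chaperone genes with the 95% interval of limma, largest decrease at the top; dashed lines mark 1.5-fold. Bag3 and Cryab (red) met the criterion, and the intervals of the other 6 genes (grey) include 0.

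Hlirag replicate 3 was the array on which 7 of the 8 genes were lowest, all except Hspb1. The chaperone genes had a median level of 7.78 on it, against 9.37 and 9.11 on Hlirag replicates 1 and 2 and 9.59, 8.95 and 9.49 on diabetic replicates 1 to 3. Without it the median log2 fold change was -0.39, all 8 log2 fold changes stayed below 0, and Bag3 and Cryab met the criterion. Of all 18166 genes, 151 were lower at the criterion without that array. Quantile normalization, which gives every array the same distribution of values, yielded a median of -0.50 with 8 of 8 below 0 and with 2 lower at the criterion. With that normalization 356 of all genes were lower at the criterion. Centring each array on its median shifted all genes by -0.14 and yielded a median of -0.70 for the chaperone genes, -0.56 relative to all genes.

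**Figure D4:**
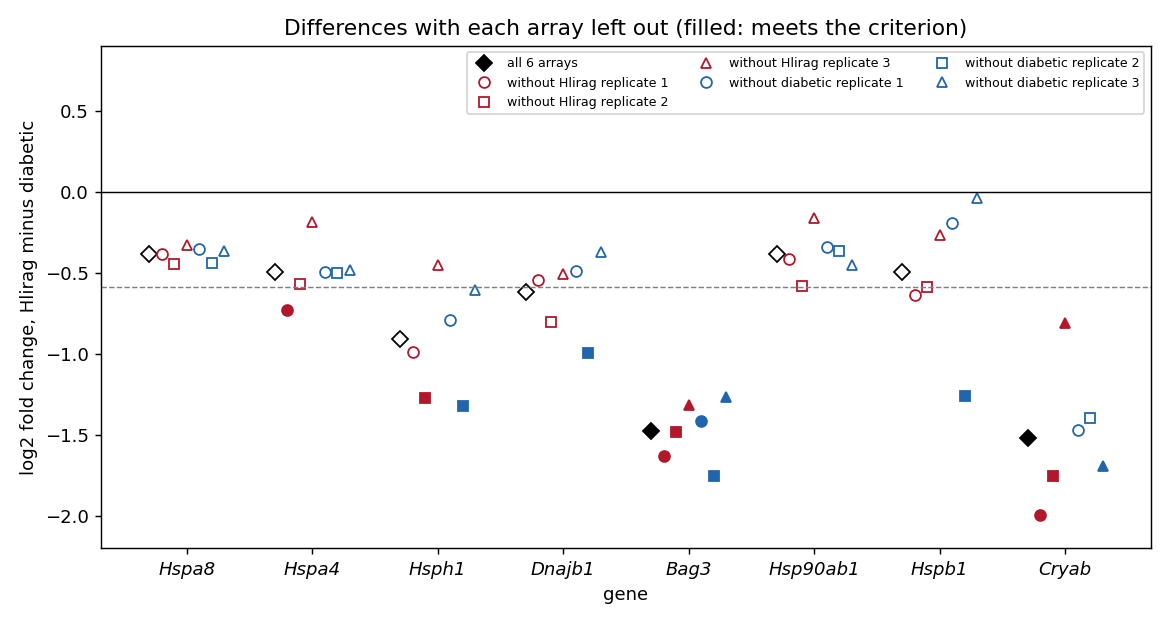
Log2 fold change (Hlirag minus diabetic) of each chaperone gene with all 6 arrays (black) and with 1 Hlirag (red) or diabetic (blue) array left out; filled symbols meet the criterion and the dashed line marks a 1.5-fold lower level. Every value lies below 0, Bag3 is filled throughout, and Cryab is open without diabetic replicate 1 or 2.

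Other genes of the chaperone system were counted from lists of their known roles. Of 20 measured further HSP70 proteins and co-chaperones, 1 was lower at the criterion and none higher, with a median log2 fold change of -0.34 (-0.15 without Hlirag replicate 3, and -0.05 against diabetic replicate 3 alone) and 18 of 20 below 0. The 1 gene was Dnaja1, a J-domain protein of the cytosol, with 9.26, 9.95 and 8.83 in Hlirag and 10.58, 9.76 and 10.22 in diabetic (log2 fold change -0.84, SE 0.35, unadjusted p = 0.0458, adjusted p = 0.780, limma). Hlirag replicate 2 lay above diabetic replicate 2, and Dnaja1 missed the criterion without Hlirag replicate 1 or 3, without diabetic replicate 1 or 3 and against diabetic replicate 3 alone, and also with an intensity trend, over all probe sets, with a replicate block and by the one-way ANOVA. The count for the list was 0 in these settings, except without Hlirag replicate 1 and without diabetic replicate 3, where it was 2 with other genes. Dnajb4, a further J-domain protein, differed by -0.70 on the log2 scale (SE 0.45) and did not meet the criterion. None of 16 HSP90 co-chaperones met it in either direction (median -0.39, and -0.10 without Hlirag replicate 3), although 1 was lower without Hlirag replicate 1 or 2 and 2 were without diabetic replicate 3. Among the HSP90 co-chaperones Tomm34, which binds HSP70 and HSP90, had -0.57 (SE 0.27, unadjusted p = 0.0709, limma) and Fkbp4, an immunophilin of steroid receptor complexes, -0.44 (SE 0.32).

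Of 6 further small heat shock proteins, 2 were lower at the criterion and none higher (median log2 fold change -0.71). Hspb7, a small heat shock protein of heart and skeletal muscle, had levels of 7.75, 6.32 and 5.65 in Hlirag and of 8.21, 8.37 and 7.61 in diabetic. Hspb8, the partner of BAG3 in selective autophagy, had 6.44, 6.21 and 5.66 in Hlirag and 7.28, 8.56 and 6.39 in diabetic. In both genes diabetic replicate 3 lay below Hlirag replicate 1, and the arrays with high skeletal muscle markers gave the highest levels. The log2 fold changes were -1.49 (SE 0.52) for Hspb7 and -1.30 (SE 0.52) for Hspb8, with an adjusted p of 0.780 each (limma). Both missed the criterion without Hlirag replicate 2 or 3, without diabetic replicate 1 or 2, against diabetic replicate 3 alone and by the one-way ANOVA. The number of lower genes in the list was 0 in these settings, except for 1 other gene without Hlirag replicate 3, and it was 3 without diabetic replicate 3. The list median was -0.31 without diabetic replicate 2 and -1.14 without diabetic replicate 3. Of all 18166 genes, 151 were lower without Hlirag replicate 3 and 776 without diabetic replicate 3. Hspb6, the small heat shock protein HSP20 of muscle, had 9.25, 9.09 and 9.30 in Hlirag and 10.35, 11.84 and 8.51 in diabetic. Its log2 fold change of -1.02 became -1.88 when diabetic replicate 3 was left out and 0.70 when diabetic replicates 1 and 2 were.

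The chaperonin, whose ring folds actin and tubulin, and prefoldin, which feeds it, were represented by 12 genes, of which none met the criterion (median -0.23, and 0.10 without Hlirag replicate 3). Without Hlirag replicate 1 the median was -0.40 and 1 gene was lower at the criterion, Cct6a, a subunit of the ring (-0.80, unadjusted p = 0.0419, limma). In that setting 971 of all 18166 genes were lower, against 393 with all arrays. Of 4 heat shock factors and regulators none met it (median -0.37, and 0.01 without Hlirag replicate 3). Hsf1 had levels of 7.08, 7.06 and 7.12 in Hlirag and of 7.37, 7.76 and 7.29 in diabetic. Its groups did not overlap, and the log2 fold change was -0.39 (SE 0.22, unadjusted p = 0.122, limma). Of 18 chaperones of the endoplasmic reticulum none met the criterion, with a median of -0.14, which was 0.18 without Hlirag replicate 3. Of 13 chaperones and proteases of mitochondria none met it either, with a median above 0 (0.28, and 0.14 with median centring, which shifted all genes by -0.14). With quantile normalization 2 were higher at the criterion, Grpel1 and Trap1. Without Hlirag replicate 1, 1 gene was higher (Trap1) and 1 lower, and without Hlirag replicate 3, 1 was higher (Grpel1). Of all 18166 genes, 292 were higher with quantile normalization and 199 without Hlirag replicate 3. Without Hlirag replicate 1, 1047 of them were higher and 971 lower. Grpel1 (0.53, SE 0.25), Hspe1 (0.52, SE 0.25), Trap1 (0.53, SE 0.26) and Hspa9 (0.49, SE 0.31) had the lowest p of that list. Of 6 measured markers of brown adipocytes, which are rich in mitochondria, 3 were higher at the criterion and none lower (median log2 fold change 0.69). Ucp1, the uncoupling protein of these cells, had 10.75, 12.75 and 12.03 in Hlirag and 10.92, 7.35 and 7.05 in diabetic (log2 fold change 3.40, SE 1.01, adjusted p = 0.780, limma). The Ucp1 level of diabetic replicate 1 lay within the Hlirag range. The median level of the 6 markers was 7.96, 9.38 and 8.82 in Hlirag and 8.59, 7.66 and 6.70 in diabetic. The part of brown adipocytes in the levels of the mitochondrial or cytosolic chaperones was not tested. The difference between the cytosolic and the mitochondrial list was not tested.

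**Figure D5:**
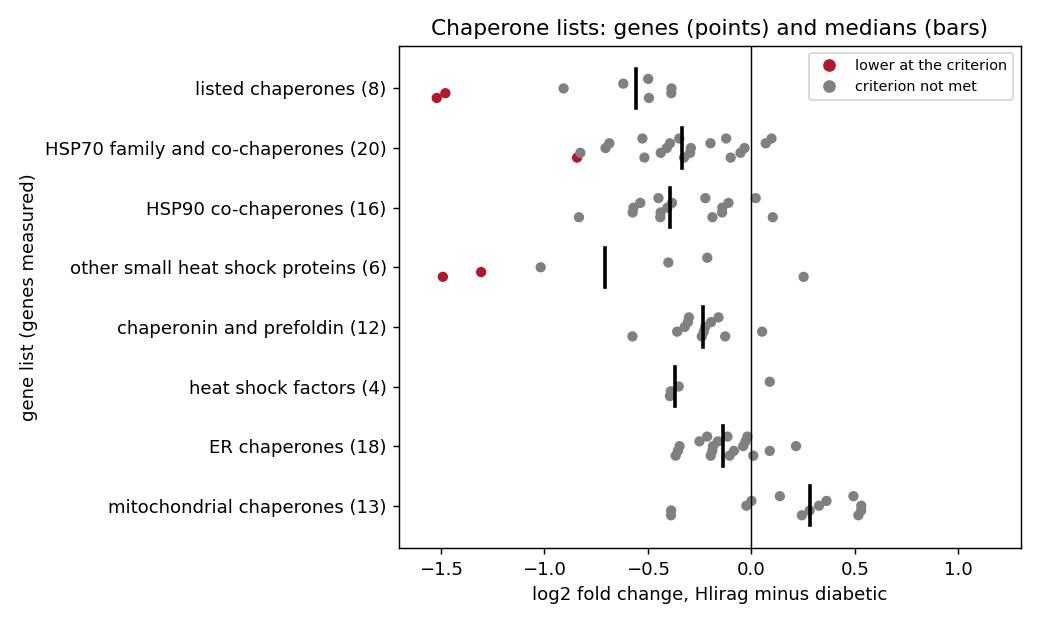
Log2 fold change (Hlirag minus diabetic) of each measured gene (points) and the median (bars) for the listed cytosolic chaperones and 7 further lists, with the number of genes measured in parentheses. Red points are lower at the criterion. The medians lie at -0.56 for the listed chaperones and at 0.28 for the mitochondrial chaperones.

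Immediate early genes, which stress and handling of tissue also induce, were counted beside the chaperones. Of 18 measured, 4 were lower and 2 higher at the criterion, with a median log2 fold change of -0.66. Atf3, a stress-induced transcription factor, had 6.03, 5.76 and 5.35 in Hlirag and 6.86, 6.29 and 6.53 in diabetic (log2 fold change -0.85, SE 0.27, adjusted p = 0.780, limma). The groups did not overlap. Nr4a1 and Nr4a2, orphan nuclear receptors, were the higher genes. Nr4a1 had 10.43, 9.80 and 10.18 in Hlirag and 8.59, 7.07 and 6.79 in diabetic (log2 fold change 2.65, SE 0.47), and Nr4a2 had 8.95, 8.56 and 8.54 in Hlirag and 7.50, 7.50 and 7.17 in diabetic (1.29, SE 0.23). Of the 18 genes, 16 had a log2 fold change below 0, and the 2 above it were Nr4a1 and Nr4a2. Nr4a3, of the same receptor family, had 6.57, 6.47 and 6.14 in Hlirag and 8.67, 6.84 and 9.14 in diabetic, with diabetic replicate 2 the lowest of its group as for Bag3. In Atf3 and Nr4a3 the groups did not overlap, whereas in the other lower genes of the list they did. With 1 array left out, between 1 and 10 genes of the list were lower (10 without Hlirag replicate 1, 1 without diabetic replicate 1) and 2 were higher. The whole table moved too, with 971 of 18166 genes lower without Hlirag replicate 1, 178 without diabetic replicate 1 and 393 with all arrays. The part of handling or stress at tissue collection in the chaperone differences was not tested.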

How the data were processed

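Signals of 6 Affymetrix Rat Gene 2.0 ST arrays were processed by the authors with Expression Console 1.4.1 into deposited log2 values for every probe set. How probes were summarised and arrays normalized is not given in the sources used here, and neither is the build; that values are log2 was inferred from their range. Of 36685 probe sets, 575 were annotated to several genes and 18511 to 1 gene. The RefSeq table of GRCr8, used for names, held 18394 of these by gene number, with the same symbol. For each of 18166 genes the single-symbol probe set with the highest mean was kept.

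Hlirag was compared with diabetic in limma 3.58.1 (R 4.3.3, lmFit, eBayes; a model of group alone without a filter), with Benjamini-Hochberg adjustment over all genes. The members and lists were chosen with earlier results of these data known. Named genes are the listed members and up to 4 genes with the lowest p of each further list, heat shock factors, and markers beside a result. The fit was tested on simulated data. Alternatives were the one-way ANOVA of the methods, median centring, quantile normalization, an intensity trend, leaving out dim genes, all probe sets, the mean of probe sets, a replicate block and leaving out each array; leaving out diabetic replicates 1 and 2 together was chosen after seeing the data. Array number limits precision, as 3 arrays against 3 cannot give an exact permutation p below 0.1. Tables and figures were made with pandas 2.3.3 and matplotlib 3.10.9.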

Additional observations from a re-analysis of the deposited data

How the results depend on the processing

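All 8 log2 fold changes of the chaperone genes stayed below 0 in each of 15 alternatives, and none was higher at the criterion in any. The count of lower genes was 2 with all arrays, 1 by the one-way ANOVA of the methods, and 1 to 4 with 1 array left out. Without diabetic replicates 1 and 2 it was 3; there the diabetic arm is 1 array, assumed to vary like Hlirag, so that this count and the others given for that setting compare that array and not the groups. The median log2 fold change was -0.56 and ranged between -1.13 and -0.39 with 1 array left out. Bag3 met the criterion in all 15 alternatives, Cryab in 11. Over all genes, 687 met the criterion, against 236 by the one-way ANOVA, 448 with dim genes left out (fewer genes tested), 286 without diabetic replicates 1 and 2, and 226 to 2018 with 1 array left out. The lower ones made up 57.2% of the 687, 74.95% of 511 with median centring, 68.3% with dim genes left out and 37.7% by the one-way ANOVA. With 1 array left out, the number of lower genes lay between 119 (without Hlirag replicate 2) and 971 (without Hlirag replicate 1). The cause of these shifts was not tested. With the replicate number as a block, 1117 genes met the criterion and the same 2 chaperone genes were lower; deviations of same-numbered arrays correlated at 0.32, 0.04 and 0.15 over genes, so the numbers were not taken to pair the samples. Without diabetic replicates 1 and 2, Hspb6 (0.70) and Unc45b, a myosin co-chaperone (0.34, against -0.83 with all arrays), turned above 0. All 8 genes lay above background on every array.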

Other observations

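The inducible HSP70 genes are nearly identical in sequence, and 1 probe set is annotated to both Hspa1a and Hspa1b, so its signal belongs to neither alone. Its levels were 5.79, 6.54 and 6.53 in Hlirag and 7.24, 6.91 and 7.26 in diabetic. Every Hlirag array lay below every diabetic array, with a log2 fold change of -0.85 (SE 0.28, unadjusted p = 0.0194, adjusted p = 0.812, limma over all probe sets). A probe set annotated to Hsp90aa1 and a pseudogene had 9.76, 10.46 and 9.51 in Hlirag and 10.55, 10.29 and 10.18 in diabetic, where the groups overlapped (log2 fold change -0.43, SE 0.30, unadjusted p = 0.196, limma). A further probe set, annotated to Hspa8, a pseudogene of it and Haus8l2, had 5.39, 5.84 and 6.80 in Hlirag and 5.61, 5.56 and 6.52 in diabetic. Its log2 fold change of 0.11 (SE 0.44, unadjusted p = 0.807, limma over all probe sets) lay above 0. These values stand outside the counts of the chaperone genes above.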
